A study of Mus musculus with 18 samples.

Results

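Cytokine mRNAs are short-lived because proteins bind sequences in their 3′ untranslated regions (3′ UTRs) and bring in, or hold off, the enzymes that degrade them. The genes described here encode 8 such proteins, picked by name and known role and not by their measured values: Zfp36, Zfp36l1, Zfp36l2, Zc3h12a, Rc3h1, Elavl1, Khsrp and Hnrnpd. They are 8 of the 21441 genes listed in each of 2 expression tables, one for RAW264.7 murine macrophages and one for mouse liver, and all 8 had a mean above 1 FPKM (fragments per kilobase of transcript and sequencing depth) in both, which was the condition for testing (9905 genes tested in macrophages and 10147 in liver). The study asked how moringa isothiocyanate-1 (MIC-1), an electrophilic isothiocyanate from seeds of the moringa tree, alters the response to lipopolysaccharide (LPS), a component of bacterial outer membranes that activates macrophages through Toll-like receptor signaling. RNA was sequenced from 3 libraries each of a control, an LPS and an LPS+MIC-1 group in both tissues, and MIC-1 alone was not a group. The animals were wild type C57BL/6 male mice. The control mice received vehicle by gavage and saline by injection. The LPS mice received 10 mg/kg LPS intraperitoneally. The LPS+MIC-1 mice were given MIC-1 in DMSO by gavage, at 80 mg/kg for 3 days, and then the same LPS injection. Livers were taken 16 h after the injection, from groups that held 6 animals each. RAW264.7 is an established macrophage line, and per the methods its LPS+MIC-1 cultures received 10 µM MIC-1. The labels of the macrophage libraries repeat the mouse strain and doses, and the LPS concentration of the sequenced cultures is not given in the sources used here. Nothing in the labels shows that the 3 macrophage libraries of a group came from separate cultures, so the p-values measure only the spread between these libraries, which may be technical.

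Many cytokine mRNAs carry AU-rich elements, runs built around the pentamer AUUUA. Zfp36 (tristetraprolin) and its relatives Zfp36l1 and Zfp36l2 are zinc finger proteins that bind such elements and recruit the deadenylase complex that shortens the poly(A) tail. Khsrp (KSRP) also promotes decay of AU-rich mRNAs, Hnrnpd (AUF1) binds them with effects that depend on its isoform, and Elavl1 (HuR) binds and mostly stabilizes them. Zc3h12a (Regnase-1) is an endonuclease and Rc3h1 (Roquin-1) a deadenylase-recruiting protein, and both act on stem-loops in the 3′ UTRs of inflammatory mRNAs. In macrophages LPS activates the p38 and MK2 kinases, which phosphorylate Zfp36 and restrain its activity, so mRNA levels do not report on the activity of these proteins.

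The 27-base stretch of 3′ UTR with the most UAUUUAU, and then the most AUUUA, is given for 4 mRNAs that such proteins act on, to show what is recognized. It is then given for the 6 regulators that the results turn on, because most of them carry the element themselves. Sequences were read from the mouse genome build NCBIM37 (mm9) on the mRNA strand, with 3′ UTRs from GENCODE, and capitals mark AUUUA.
Tnf, the cytokine tumor necrosis factor (chr17:35336626-35336652, minus strand): uuAUUUAuuAUUUAUUUAuuAUUUAuu
Cxcl2, a neutrophil-attracting chemokine (chr5:91334353-91334379, plus strand): uAUUUAUUUAucuauguAUUUAUUUAu
Csf2, the growth factor GM-CSF (chr11:54060828-54060854, minus strand): aauAUUUAUUUAUUUAUUUAUUUAuuu
Il6, the cytokine interleukin 6 (chr5:30346262-30346288, plus strand): aguuaAUUUAugauugauAUUUAuuau
Zfp36 (chr7:29161979-29162005, minus strand): cuuuAUUUAugacgacuuuAUUUAuug
Zfp36l1 (chr12:81209420-81209446, minus strand): uuAUUUAacuuaucaaaacguAUUUAu
Zfp36l2 (chr17:84584260-84584286, minus strand): aaaaacuAUUUAacuuAUUUAuuaucu
Rc3h1 (chr1:162900166-162900192, plus strand): acAUUUAuacuuuacucauuAUUUAuu
Elavl1 (chr8:4285783-4285809, minus strand): aaauuAUUUAUUUAUUUAUUUAuuuuu
Zc3h12a (chr4:124796291-124796317, minus strand): guaucucugucAUUUAaggagacgcug
Elavl1 held a run of 4 overlapping pentamers in this stretch, much like the run of 5 in Csf2. Tnf also held 4 pentamers, not all of them overlapping, whereas Zc3h12a held 1 pentamer.

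Over the whole 3′ UTR, AUUUA was counted on the mRNA strand with overlaps, and the longer heptamer UAUUUAU, which contains it, was counted in the same way. Of 19915 genes with a 3′ UTR, 61.3% held AUUUA and 23.9% held UAUUUAU. Zfp36 held 3 AUUUA in 774 bases, where 3′ UTRs of like length (0.8 to 1.25 times) had a median of 1, and all 3 lay within UAUUUAU. Zfp36l1 held 9 AUUUA in 1829 bases and Zfp36l2 held 5 in 1822 bases, each against a median of 3 in 3′ UTRs of like length, and each also held 3 UAUUUAU. Elavl1 held 18 AUUUA and 8 UAUUUAU in 4818 bases, against a median of 7 AUUUA. Rc3h1, with the longest 3′ UTR of the 8 at 7181 bases, held 20 AUUUA and 2 UAUUUAU, against a median of 11 AUUUA. Zc3h12a held 3 AUUUA in 856 bases (median 1), Hnrnpd 5 in 2938 bases (median 4) and Khsrp 1 in 1635 bases (median 2), and these 3 genes held no UAUUUAU. The share of 3′ UTRs of like length with UAUUUAU was 18.2% for Zfp36, 35.5% for Zfp36l1 and 35.4% for Zfp36l2. It was 60.7% for Elavl1 and 70.7% for Rc3h1, so holding it is common at those lengths. For Zc3h12a, Hnrnpd and Khsrp that share was 19.4%, 47.3% and 33.9%. A match of letters is a description and not a site of action. In Tnf, 8 AUUUA stood in 764 bases, nearly the length of the Zfp36 3′ UTR, and all 8 were within UAUUUAU.

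Libraries that stood apart from their labels come before the results, with libraries numbered in the column order of each table. In macrophages the library labelled LPS 2 lay near the controls. Over a list of 16 genes known to respond to LPS, its median log2 difference from the control mean was 0.62, against 4.29 and 4.31 in LPS 1 and LPS 3, -0.39 to 0.57 in the controls and 4.17 to 4.82 in the LPS+MIC-1 libraries. Its median absolute log2 difference from control 2 over the 9905 genes was 0.073, against 0.69 and 0.70 from LPS 1 and LPS 3. The study used only 2 LPS macrophage libraries and does not say which, so each macrophage result is given with all 9 libraries and again without LPS 2. In liver, LPS 2 was nearer to each LPS+MIC-1 library (0.44, 0.31 and 0.45 in column order) and to control 1 (0.49) than to the other LPS libraries (0.53 and 0.55). Liver libraries 1 and 3 lay closer to each other than to library 2 with LPS (0.16) and with LPS+MIC-1 (0.11, against 0.35). Among the liver controls it was library 1 that stood apart, at 0.43 from control 2 and 0.48 from control 3, which differed by 0.20. Libraries 1 and 3 of each macrophage group lay closer to each other than to library 2. Their squared differences were 1.59 to 1.92 times the sampling variance, against 7.63 to 84.2 times in macrophage pairs with library 2. An excess over sampling cannot show that libraries came from separate cultures, and counting them separately was a choice. Without LPS 2 the LPS group was LPS 1 and LPS 3 alone, so the small p-values of those fits rest on such close pairs. The FPKM values of a macrophage library summed to 557136 to 598270 in the controls and LPS 2, to 1137533 and 1132904 in LPS 1 and LPS 3, and to 647770 to 652486 with LPS+MIC-1, and in liver to 590303 to 1063784. Setting these sums equal moved the median log2 fold change of all genes by -0.63 for LPS against control, 0.45 for LPS+MIC-1 against LPS and -0.18 for LPS+MIC-1 against control in macrophages, and by -0.32, -0.25 and -0.58 in liver. It also moved the share of called genes that were higher, from 47.2% to 77.6% for LPS+MIC-1 against LPS in macrophages, and without LPS 2 from 49.1% to 14.3% for LPS against control, from 49.9% to 86.5% for LPS+MIC-1 against LPS and from 46.5% to 32.3% for LPS+MIC-1 against control. In liver that share moved from 55.3% to 31.2% for LPS against control and from 55.2% to 17.6% for LPS+MIC-1 against control. Directions of single genes that this scaling turned are named with the gene. One read in a gene of 1 kb was worth an FPKM of 1 divided by an estimated 14.1 to 24.45 in macrophages and by 5.85 to 17.1 in liver, which limits the precision of the low values.

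In untreated macrophages the mRNA for Zfp36 stood far above the other 7. Its FPKM in the controls was 334 ± 67.0 (SD, n = 3), followed by Zfp36l2 at 66.8 ± 2.21, Khsrp at 42.2 ± 4.91, Hnrnpd at 33.8 ± 3.68, Elavl1 at 20.0 ± 1.60, Zfp36l1 at 11.6 ± 0.570, Zc3h12a at 9.11 ± 2.89 and Rc3h1 at 4.26 ± 0.214. FPKM is a level per length, so these genes can be ranked against each other, and of the neighbors in that order only Zfp36l1 and Zc3h12a had overlapping ranges. Khsrp and Hnrnpd were separated by the narrowest gap, between 36.5 and 36.4.

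**Figure D1:**
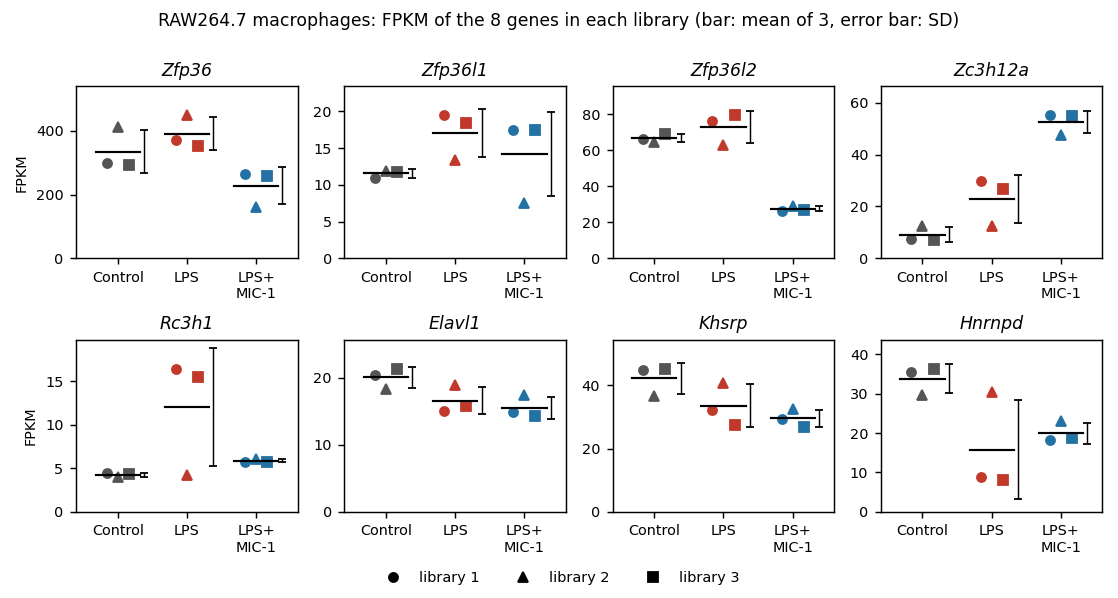
FPKM of the 8 genes in each of the 9 macrophage libraries, 1 panel per gene with its own linear axis from 0; points are libraries (circle 1, triangle 2, square 3), lines are group means and error bars are SD (n = 3). LPS library 2 sits with the controls for Rc3h1 (4.21) and Hnrnpd (30.3), and the 3 LPS+MIC-1 libraries sit highest for Zc3h12a (47.6 to 55.2) and lowest for Zfp36l2 (26.5 to 29.1).

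In LPS+MIC-1 macrophages, 2 of the 3 Zfp36 family mRNAs fell against LPS and the mRNA for the endonuclease Zc3h12a rose. By limma on log2(FPKM + 0.5), a scale that understates the change of low genes, 3 of the 8 passed an adjusted p of 0.05 over all genes tested (1 higher and 2 lower), and 21.6% of all genes did. Zfp36l2, the zinc finger decay factor best known from hematopoietic cells, had an FPKM of 66.6, 64.7 and 69.1 in the controls, 76.3, 62.7 and 79.6 under LPS, and 26.5, 29.1 and 27.0 under LPS+MIC-1. Each LPS+MIC-1 library was below each of the other 6. The mean was 27.6 ± 1.39 (SD, n = 3) with LPS+MIC-1 against 72.9 ± 8.93 with LPS, 2.64-fold lower, with a log2 fold change of -1.38 (SE 0.12, adjusted p = 0.000658). Against control it was 2.42-fold lower, at -1.26 (SE 0.12, adjusted p = 0.00061). Without LPS 2 the change against LPS was -1.48 (SE 0.07, adjusted p = 3.63e-06), and LPS itself was above control by 0.22 (adjusted p = 0.0173), a small rise that turned to -0.76 with FPKM sums set equal. Over the other settings the change of Zfp36l2 between LPS+MIC-1 and LPS ran from -1.48 to -0.69.

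Zfp36, the best known member of its family and an immediate early gene, had FPKM values of 299, 412 and 292 in the controls, 370, 449 and 352 under LPS, and 263, 162 and 259 under LPS+MIC-1. All 3 LPS+MIC-1 libraries were below all the others, whereas the LPS and control ranges overlapped. The mean was 1.71-fold lower with LPS+MIC-1 than with LPS, at a log2 fold change of -0.80 (SE 0.23, adjusted p = 0.0423), and -0.69 without LPS 2 (adjusted p = 0.0296). That call was lost when low genes were kept in the fit (adjusted p = 0.062) and with FPKM sums set equal (-0.30, adjusted p = 0.544), and with both LPS 2 left out and sums equal the sign turned (0.11). It was also lost on leaving out any 1 library other than LPS 2 (adjusted p = 0.0507 to 0.101). Against control the log2 fold change was -0.57 (SE 0.23, adjusted p = 0.107, or 0.0464 without LPS 2). For LPS against control it was 0.23 (SE 0.23, adjusted p = 0.415), which turned to -0.45 with sums set equal.

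Zfp36l1, the third family member and the lowest of them in these cells, had an FPKM of 10.9, 12.0 and 11.8 in the controls, 19.5, 13.4 and 18.4 under LPS, and 17.5, 7.53 and 17.5 under LPS+MIC-1. Both LPS 1 and LPS 3 were above every control, and LPS+MIC-1 2 was below all other libraries. No comparison passed the test with 9 libraries, and the log2 fold change for LPS against control was 0.53 (SE 0.31, adjusted p = 0.191), or 0.69 (adjusted p = 0.0862) without LPS 2, and it turned to -0.13 with FPKM sums set equal.

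Zc3h12a, whose product cleaves mRNAs such as that of Il6, was lowest in the controls and highest with LPS+MIC-1. Its FPKM was 7.63, 12.4 and 7.25 in the controls, 29.7, 12.5 and 26.8 under LPS, and 55.2, 47.6 and 54.8 under LPS+MIC-1. The LPS+MIC-1 libraries did not overlap with either other group, and LPS 2 was level with control 2. The mean with LPS+MIC-1 was 52.5 ± 4.24 (SD, n = 3), 2.29-fold that with LPS (log2 fold change 1.27, SE 0.33, adjusted p = 0.0329) and 5.77-fold that of the controls (2.50, SE 0.33, adjusted p = 0.00229). For LPS against control it was 1.24 (SE 0.33, adjusted p = 0.0777) with all libraries and 1.62 (SE 0.21, adjusted p = 0.000215) without LPS 2, a 3.10-fold difference of means. Without LPS 2, LPS+MIC-1 stood 1.86-fold above LPS (0.88, SE 0.21, adjusted p = 0.00666). With LPS 2 left out and FPKM sums set equal, LPS against control shrank to 0.66. Over the other settings LPS+MIC-1 against LPS ran from 0.88 to 1.75. The call against LPS was lost on leaving out control 1, control 3, LPS 3 or any of the LPS+MIC-1 libraries (adjusted p = 0.0545 to 0.103), and the call against control was not lost on leaving out any 1 library.

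Rc3h1, which represses mRNAs of inducible immune genes, gave the sharpest contrast between LPS libraries. Its FPKM was 4.45, 4.03 and 4.32 in the controls, 16.5, 4.21 and 15.5 under LPS, and 5.77, 6.04 and 5.76 under LPS+MIC-1. The value in LPS 2 lay within the control range. No comparison passed the test with all 9 libraries (adjusted p = 0.0777 for LPS against control and 0.229 for LPS+MIC-1 against LPS). Without LPS 2 the LPS mean was 3.75-fold that of the controls (log2 fold change 1.79, SE 0.08, adjusted p = 1.62e-06), and the LPS+MIC-1 mean was 2.73-fold below LPS (-1.37, SE 0.08, adjusted p = 7.43e-06) while still above control by 0.42 (adjusted p = 0.00154). With FPKM sums also set equal, these log2 fold changes shrank to 0.86, -0.61 and 0.25.

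Hnrnpd went the other way. Its FPKM was 35.5, 29.6 and 36.4 in the controls, 8.81, 30.3 and 8.14 under LPS, and 18.1, 23.1 and 18.6 under LPS+MIC-1. With LPS 2 set aside, the 3 groups did not overlap, and LPS+MIC-1 lay between LPS and control. The log2 fold change for LPS against control was -1.34 (SE 0.44, adjusted p = 0.0777) with all libraries. Without LPS 2 it was -1.93 (SE 0.13, adjusted p = 7.85e-06), a 3.99-fold lower mean, and LPS+MIC-1 was 2.35-fold above LPS (1.18, SE 0.13, adjusted p = 0.000132) and below control (-0.75, adjusted p = 0.00098, or 0.242 with all libraries). With FPKM sums also set equal, the log2 fold changes of Hnrnpd grew to -2.88, 1.94 and -0.94 in the same order.

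Of the 8 genes, Elavl1 and Khsrp had the smallest log2 fold changes between LPS+MIC-1 and LPS (-0.09 and -0.17 with all libraries). Elavl1, the stabilizing protein, had an FPKM of 20.5, 18.3 and 21.4 in the controls, 15.1, 18.9 and 15.8 under LPS, and 14.8, 17.4 and 14.2 under LPS+MIC-1. Khsrp had 44.7, 36.5 and 45.3 in the controls, 32.2, 40.8 and 27.6 under LPS, and 29.3, 32.4 and 26.9 under LPS+MIC-1. In both genes the LPS+MIC-1 libraries were below all controls, and the log2 fold changes against control were -0.36 (SE 0.14, adjusted p = 0.0848) and -0.51 (SE 0.17, adjusted p = 0.0593), which passed without LPS 2 (adjusted p = 0.0118 and 0.00579). Without LPS 2, LPS was below control by -0.37 for Elavl1 (adjusted p = 0.0145) and -0.49 for Khsrp (adjusted p = 0.00872). With FPKM sums also set equal, these differences grew to -1.33 and -1.46. Between LPS+MIC-1 and LPS the difference without LPS 2 was near 0, with a 95% interval of -0.25 to 0.25 for Elavl1 and -0.31 to 0.28 for Khsrp, which does not show equality, and with sums also set equal it was 0.78 and 0.77.

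Counted over the comparisons, LPS against control gave 0 of the 8 genes past the adjusted p by limma with all 9 libraries, 3 at an unadjusted p under 0.05, and 0% and 49.8% of all genes by the same rules. Without LPS 2 it gave 6 of 8 (3 higher and 3 lower), where 75.2% of all genes passed. In LPS+MIC-1 against LPS the count was 5 of 8 without LPS 2, 2 higher and 3 lower (62.5%, against 68% of all genes), and for LPS+MIC-1 against control it was 2 of 8 with all libraries (24.8% of all genes) and 7 of 8 without LPS 2 (87.5%, against 60.3% of all genes). No test compared the shares of the 8 genes with those of all genes. Groups did not overlap in 2, 3 and 7 of the 8 genes for the same 3 comparisons with all libraries, where 33.3%, 36.1% and 66.4% of all genes did not, and in 7, 6 and 7 without LPS 2, where 85.6%, 80.3% and 66.4% did not. With 3 libraries against 3, an exact permutation test of a single gene cannot give a two-sided p below 0.1. The comparisons share libraries, the LPS ones in one pair and the controls in another, so they are not independent of each other. Averaging libraries 1 and 3 of each group, as if they were 1 library, left 0 of the 8 genes called in every comparison of both tissues. In macrophages it also left 0 of all 9905 genes called. In liver it left fewer of all genes called for LPS against control than the 34.7% with libraries counted separately. The loss of calls was therefore not particular to the 8 genes.

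**Figure D2:**
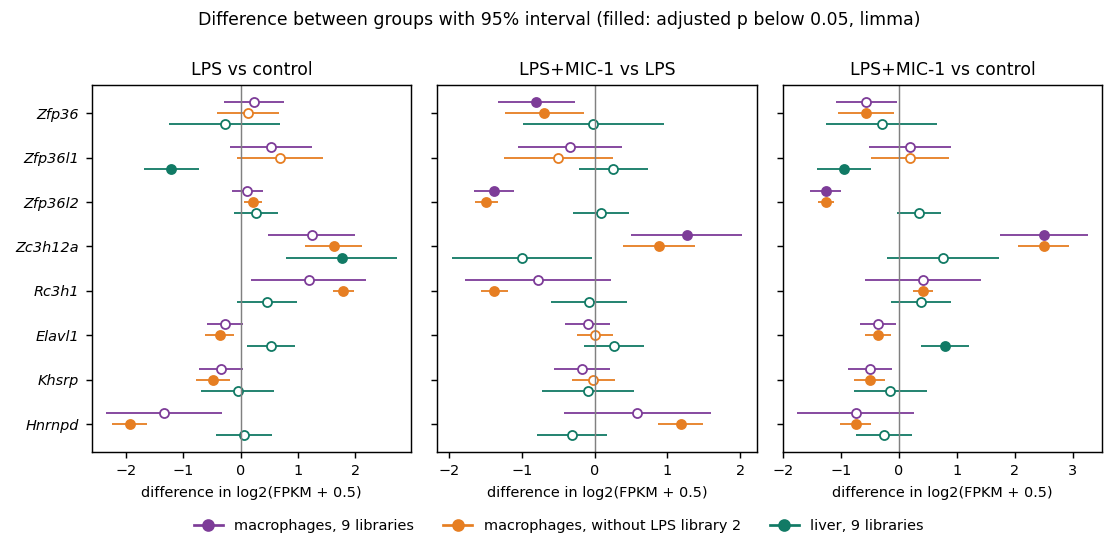
Log2 fold changes (limma, log2(FPKM + 0.5)) of the 8 genes in 3 comparisons, for macrophages with all 9 libraries, macrophages without LPS library 2, and liver; bars are 95% intervals and filled points passed an adjusted p of 0.05. Zfp36l2 (-1.38) and Zc3h12a (1.27) move in opposite directions for LPS+MIC-1 against LPS in macrophages, and no liver point is filled in that comparison.

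Levels relative to Elavl1 within a library do not depend on how libraries are scaled. In macrophages the ratio of Zfp36l2 to Elavl1 was 3.24 to 3.55 in the controls, 3.32 to 5.07 under LPS and 1.67 to 1.90 under LPS+MIC-1, and the last range lay apart from both others. The ratio of Zc3h12a to Elavl1 was 0.339 to 0.681, 0.658 to 1.97 and 2.74 to 3.85 in the same groups, so Zc3h12a was below Elavl1 in every control and above it in every LPS+MIC-1 library. For Zfp36 the mean log2 ratio was 4.05, 4.55 and 3.85, and Zfp36 stayed the higher of the pair in all 9 libraries. A ratio shows unequal change of a pair of genes and not which of them moved.

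**Figure D3:**
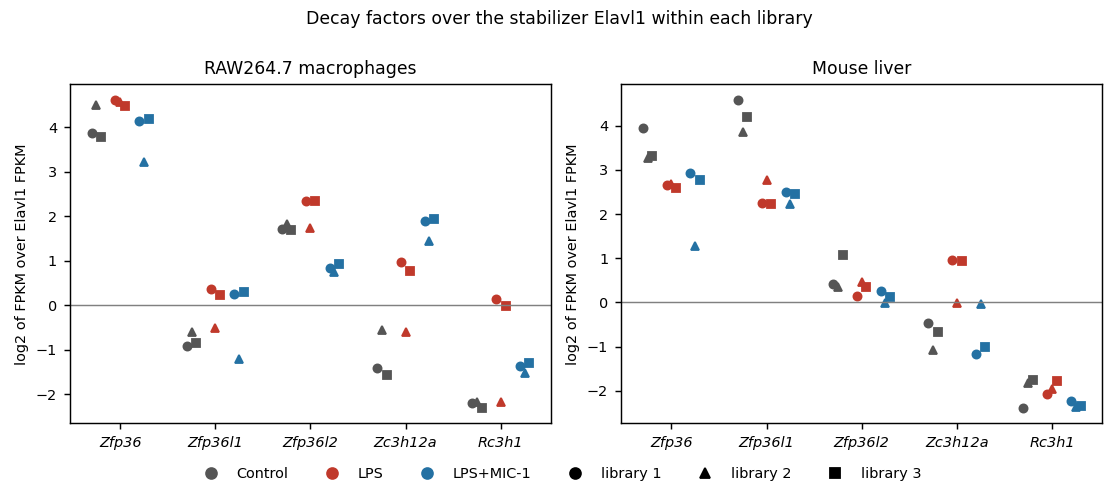
Log2 of the FPKM of Zfp36, Zfp36l1, Zfp36l2, Zc3h12a and Rc3h1 over that of Elavl1 within each library, for macrophages (left) and liver (right); color marks the group and shape the library, and the line at 0 is equal FPKM. As ratios, in macrophages Zfp36l2 relative to Elavl1 is lowest with LPS+MIC-1 (1.67 to 1.90) and Zc3h12a highest (2.74 to 3.85), and in liver Zfp36l1 is highest in the controls (14.5 to 24.0).

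Of a list of mRNAs known as targets of these proteins, 19 were tested in macrophages. Between LPS+MIC-1 and LPS 9 of the 19 rose and 1 fell (median log2 fold change 1.83, against -0.01 over all genes), and for LPS+MIC-1 against control 16 rose and 0 fell (median 2.80, against -0.04). These were 52.6% and 84.2% of the targets, where 21.6% and 24.8% of all genes passed. Between LPS and control 0 passed with all libraries and 14 rose and 0 fell without LPS 2 (median 1.58), or 10 and 4 with FPKM sums also set equal. The 14 were 73.7% of the targets, near the 75.2% of all genes that passed without LPS 2. Tnf had an FPKM of 165, 330 and 163 in the controls, 238, 344 and 238 under LPS, and 719, 658 and 709 under LPS+MIC-1, with a log2 fold change against LPS of 1.37 (SE 0.28, adjusted p = 0.0147). Cxcl2 had 87.3, 210 and 99.3, then 1492, 197 and 1598, then 4957, 4929 and 5158, a change against LPS of 2.69 (SE 0.75, adjusted p = 0.0401). Il6 was at 0, 0.139 and 0 in the controls, 5.45, 0.418 and 6.37 under LPS, and 59.0, 15.5 and 59.6 under LPS+MIC-1, a change against LPS of 3.53 (SE 0.81, adjusted p = 0.021). Tnf, Cxcl2 and Il6 were highest in the group in which Zc3h12a was highest and Zfp36 and Zfp36l2 were lowest. Csf2 was at 9.42, 4.66 and 8.82 with LPS+MIC-1, at 0.662, 0.0522 and 0.545 with LPS and at 0, 0.260 and 0.0493 in the controls (against LPS 3.16, SE 0.37, adjusted p = 0.00179). It met the condition for testing only through the LPS+MIC-1 group, so its rise there is a description only. The counts of targets that rose include it. Nfkbiz, a regulator of secondary inflammatory genes and a Regnase-1 target, rose by 1.44 (SE 0.25, adjusted p = 0.00742). Il1b had 635, 81.7 and 664 with LPS+MIC-1 against 214, 4.87 and 227 with LPS, and did not pass (2.35, SE 1.47, adjusted p = 0.272). Ptgs2, which encodes cyclooxygenase-2, had 1399, 931 and 1373 with LPS+MIC-1 against 478, 31.4 and 487 with LPS (2.64, SE 0.93, adjusted p = 0.0773, or 0.000279 without LPS 2). Il10, an anti-inflammatory cytokine, was at 2.48 to 3.00 in the controls, 2.03 to 3.49 under LPS and 7.99, 2.49 and 7.54 under LPS+MIC-1 (0.83, adjusted p = 0.157). The largest differences from control in the list were those of Csf3, the growth factor G-CSF (10.41 with LPS+MIC-1, adjusted p = 0.00557), and of Il1a, the cytokine interleukin 1α (7.27, adjusted p = 0.0193). Fos, an immediate early mRNA with an AU-rich element, was the 1 target that fell (-0.81, adjusted p = 0.0348), and with FPKM sums set equal 10 targets rose and 0 fell. Without LPS 2, 11 targets rose and 2 fell against LPS, 68.4% of the targets, near the 68% of all genes that passed. Tnf (1.54), Cxcl2 (1.70), Il6 (2.59), Csf2 (2.83) and Nfkbiz (1.30) were among those that rose.

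**Figure D4:**
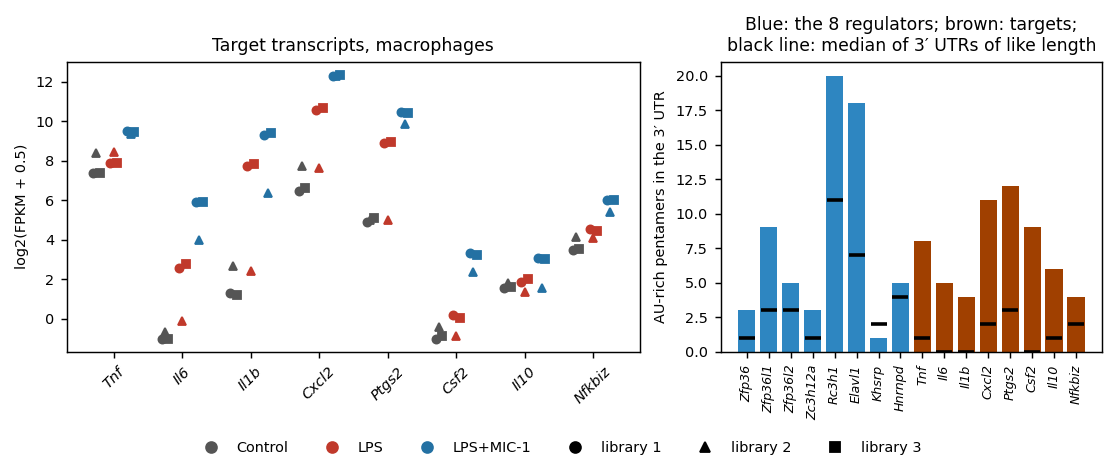
Left, log2(FPKM + 0.5) of 8 target mRNAs in the 9 macrophage libraries, with color for the group and shape for the library. Right, number of AUUUA pentamers in the 3′ UTR of the 8 regulators (blue) and the targets (brown), with a black line for the median of 3′ UTRs of like length. On the left the LPS+MIC-1 libraries are highest for Tnf (658 to 719 FPKM), and on the right Csf2 (9), Tnf (8) and Elavl1 (18) stand above their lines (0, 1 and 7), and Khsrp (1) stands below its line (2).

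The enzymes and cofactors that these proteins work with were counted by the same test with all 9 libraries. With LPS+MIC-1 against LPS in macrophages, 0 of 18 deadenylation genes rose and 3 fell, 1 of 17 decapping and 5′ decay genes rose and 2 fell, and none of 16 exosome genes passed, where 21.6% of all genes did. Tob1, an adaptor between mRNA-binding proteins and the deadenylase, fell by 0.79 on the log2 scale (adjusted p = 0.0391). Of 21 other AU-rich or 3′ UTR binding proteins 1 rose and 3 fell, among the latter Ybx1 (-0.93, adjusted p = 0.00658), an abundant RNA-packaging protein. Of 9 genes of the p38 and MK2 axis 1 rose and 2 fell. With FPKM sums set equal the counts of the binding proteins were 2 higher and 0 lower, and no deadenylation or exosome gene passed. Against control, LPS+MIC-1 gave counts of higher and lower genes of 0 and 4 for deadenylation, 0 and 7 for decapping, 0 and 2 for the exosome, 2 and 8 for the other binding proteins and 0 and 1 for the p38 axis. These were 22.2%, 41.2%, 12.5%, 47.6% and 11.1% of the genes tested in each list, where 24.8% of all genes passed. The decapping genes that fell against control included Lsm2 (-1.86, adjusted p = 0.0169) and Lsm7 (-1.24, adjusted p = 0.0255), both subunits of the ring that binds deadenylated mRNA.

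Without LPS 2, more genes fell than rose with LPS in each of these lists but the p38 axis, and 66.7% to 81.2% of their tested genes passed, where 75.2% of all genes did. Against control 13 of 16 exosome genes fell and 0 rose (median log2 fold change -1.17), with Exosc5 at -1.77 (adjusted p = 8.78e-06) and Exosc2 at -1.59 (adjusted p = 2.83e-05), both subunits of the 3′ to 5′ degrading complex. Dis3l2 (0.14, adjusted p = 0.346) and Ttc37 (0.39, adjusted p = 0.0685), a 3′ to 5′ exonuclease and a subunit of the SKI complex, did not pass. The counts of higher and lower genes were 4 and 9 for deadenylation, 1 and 11 for decapping, 1 and 13 for the other binding proteins and 4 and 3 for the p38 axis. Among the deadenylation genes Btg1 (1.44, adjusted p = 0.000523) and Tob1 (0.91, adjusted p = 0.000205), related adaptors, rose, and the deadenylase Cnot6 (-1.35, adjusted p = 0.00135) and the complex subunit D1Bwg0212e, now Cnot11 (-1.27, adjusted p = 4.69e-06), fell. Patl1, a scaffold of decapping, rose by 0.83 (adjusted p = 3.34e-05), Lsm2 (-1.71) and Lsm7 (-1.30) fell, and Dcp1a, a decapping cofactor, was at 0.25 (adjusted p = 0.0794). Of the binding proteins, Fubp1 (-3.25, adjusted p = 9.88e-05) and Fubp3 (-2.36, adjusted p = 9.36e-06), relatives of Khsrp, fell. Zc3h12c, a relative of Zc3h12a, rose by 0.43 (adjusted p = 0.00652), and with LPS+MIC-1 against control it was at 0.77 with all libraries (adjusted p = 0.0144). Dusp1, the phosphatase that switches off p38, rose by 1.77 (adjusted p = 0.000253) and was lower with LPS+MIC-1 than with LPS (-1.33, adjusted p = 0.00156). Ppp2r1a, the scaffold of the phosphatase PP2A, rose by 1.39 (adjusted p = 2.15e-06) and was lower with LPS+MIC-1 (-1.19, adjusted p = 6.72e-06). Of the 14-3-3 proteins that bind phosphorylated Zfp36, Ywhab fell (-0.93, adjusted p = 1.4e-05) and Ywhaz did not pass (-0.87, adjusted p = 0.0668).

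Without LPS 2, the counts of higher and lower genes were 6 and 5 for LPS+MIC-1 against LPS in deadenylation, 3 and 4 in decapping, 9 and 2 for the exosome, 9 and 5 for the other binding proteins and 3 and 4 for the p38 axis, where 68% of all genes passed. Against control, LPS+MIC-1 gave 2 and 9, 0 and 10, 0 and 11, 2 and 17, and 3 and 3 in the same order, where 60.3% of all genes passed. These splits depended on scaling. With FPKM sums also set equal, the exosome counts were 15 higher and 0 lower, the deadenylation counts 13 and 0 and those of the other binding proteins 17 and 0. On that scale, for LPS against control, 16 exosome genes, 15 deadenylation genes and 20 other binding proteins fell and none rose.

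Markers of other cell types were low in RAW264.7 cells, at summed FPKM of 3.31 to 16.4 for hepatocytes and 0.335 to 0.769 for lymphocytes, and the macrophage markers summed to 10859 to 13154. The neutrophil list moved with the groups, at 2.52 to 3.67 in the controls, 33.5, 5.08 and 43.7 under LPS and 690 to 756 under LPS+MIC-1, of which S100a8, which activated macrophages also express, made up 651 to 718. Whether this has a part in the results above was not tested.

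In liver the order of the 8 genes differed from that in macrophages, with Zfp36l1 and Zfp36 at the top. In the controls Zfp36l1 had an FPKM of 82.0 ± 23.2 (SD, n = 3) and Zfp36 of 50.6 ± 17.0, with overlapping ranges. Khsrp (9.66 ± 3.21), Hnrnpd (6.98 ± 1.05) and Zfp36l2 (6.60 ± 0.969) followed and also overlapped. Elavl1 (4.32 ± 0.562), Zc3h12a (2.61 ± 0.558) and Rc3h1 (1.10 ± 0.238) were lowest and each lay apart from its neighbors. The tables were normalized separately, so no level was tested between tissues.

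**Figure D5:**
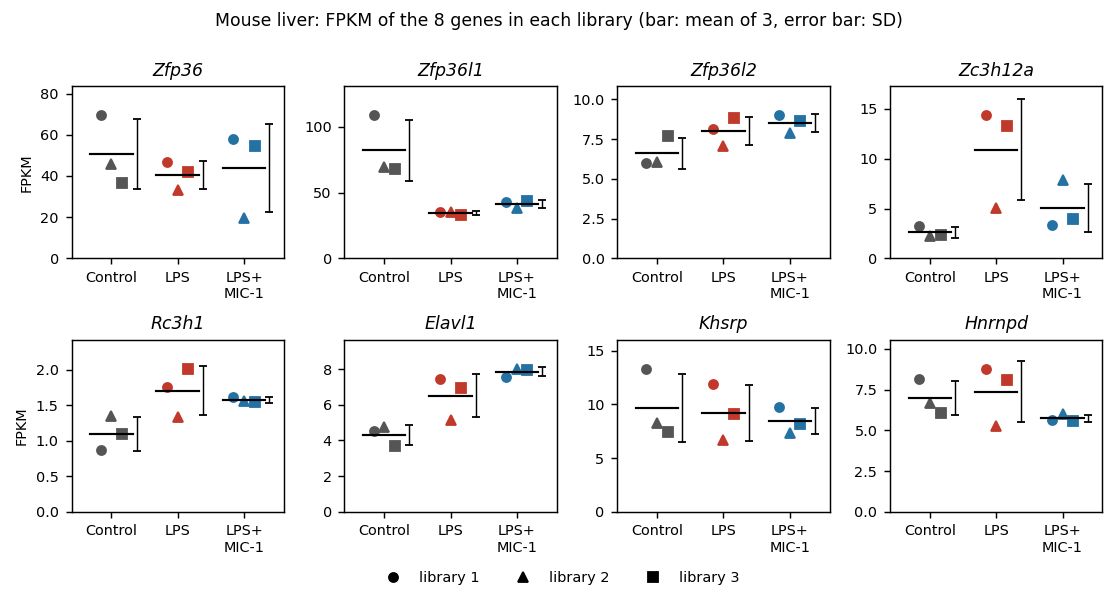
FPKM of the 8 genes in each of the 9 liver libraries, 1 panel per gene with its own linear axis from 0; points are libraries (circle 1, triangle 2, square 3), lines are group means and error bars are SD (n = 3). All 6 LPS and LPS+MIC-1 libraries sit below the controls for Zfp36l1 (32.7 to 43.4 against 68.2 to 109), and for Zc3h12a LPS 2 (5.10) and LPS+MIC-1 2 (7.83) sit apart from their groups.

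With LPS in liver, Zfp36l1 fell and Zc3h12a rose. Against control 2 of the 8 genes passed (1 higher and 1 lower), where 34.7% of all genes did. Zfp36l1 had an FPKM of 109, 69.1 and 68.2 in the controls, 35.4, 35.2 and 32.7 under LPS, and 42.6, 37.9 and 43.4 under LPS+MIC-1. Every treated library was below every control. The LPS mean was 2.38-fold lower than control (log2 fold change -1.21, SE 0.21, adjusted p = 0.0054) and the LPS+MIC-1 mean 1.99-fold lower (-0.95, SE 0.21, adjusted p = 0.0102). Between LPS+MIC-1 and LPS the difference was 0.26 (adjusted p = 0.997), although these ranges did not overlap, and with FPKM sums set equal it was -0.029.

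Zc3h12a in liver had an FPKM of 3.26, 2.25 and 2.33 in the controls, 14.4, 5.10 and 13.2 under LPS, and 3.37, 7.83 and 3.95 under LPS+MIC-1. All LPS libraries were above all controls, but LPS 2 lay between LPS+MIC-1 libraries. The LPS mean was 4.17-fold that of the controls (log2 fold change 1.76, SE 0.42, adjusted p = 0.0156). The call was lost on leaving out control 2, control 3, LPS 1 or LPS 3 in turn (adjusted p = 0.0522 to 0.0656). LPS+MIC-1 against LPS gave a log2 fold change of -1.0 (SE 0.42, 95% interval -1.96 to -0.04, adjusted p = 0.997). Without LPS 2 and LPS+MIC-1 2, a setting chosen after seeing the data, it was -1.78 (adjusted p = 0.018), and against control LPS+MIC-1 was then at 0.43 (adjusted p = 0.11).

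The summed macrophage markers of the liver followed the same libraries as Zc3h12a, a pattern carried by Cd14 and not shared by all markers of the list. The summed FPKM of the macrophage and Kupffer cell list was 56.9, 92.7 and 80.1 in the controls, 655, 176 and 646 under LPS, and 215, 482 and 221 under LPS+MIC-1, of which Cd14, an LPS co-receptor, made up 569, 84.2 and 552 under LPS and 56.7, 407 and 61.4 under LPS+MIC-1. Under LPS+MIC-1, Lyz2 (58.6, 19.1 and 56.7), Marco (74.2, 38.4 and 75.6) and Csf1r (6.85, 5.11 and 6.97) were lowest in library 2. Zc3h12a was highest there. Under LPS, Lyz2 was lowest in library 2 (28.0), as Zc3h12a was, and Marco (40.4) and Csf1r (8.73) were highest there. Clec4f, a marker of Kupffer cells, was at 13.0 to 30.1 in the controls and 2.85 to 6.32 in the treated libraries, and Emr1, the gene of F4/80, was at 0 to 1.60 in all. Of 8 genes of that list tested, 2 rose and 2 fell with LPS, and of 8 neutrophil markers 7 rose and 1 fell, where 34.7% of all genes passed. The neutrophil list summed to 37.6 to 53.1 in the controls, 354 to 449 under LPS and 192, 462 and 205 under LPS+MIC-1. The hepatocyte list summed to 43163 to 86832. Their part in the liver results was not tested, and in whole tissue fewer cells of a type and less RNA per cell cannot be told apart.

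Elavl1 was higher in treated livers, opposite in direction to macrophages. Its FPKM was 4.53, 4.76 and 3.69 in the controls, 7.42, 5.16 and 6.94 under LPS, and 7.56, 8.03 and 7.93 under LPS+MIC-1, so each treated library was above each control. The LPS+MIC-1 mean was 1.81-fold that of the controls (log2 fold change 0.80, SE 0.18, adjusted p = 0.0122), a call lost with FPKM sums set equal (0.19, adjusted p = 0.476). LPS against control gave 0.53 (SE 0.18, adjusted p = 0.0524), which passed without LPS 2 (0.68, adjusted p = 0.0103), and the difference between the tissues was not tested.

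The other 5 genes did not pass a test in liver with all 9 libraries. Zfp36 had an FPKM of 69.5, 45.6 and 36.7 in the controls, 46.7, 33.1 and 41.7 under LPS, and 58.0, 19.5 and 54.5 under LPS+MIC-1, and its groups overlapped throughout. Zfp36l2 had 6.01, 6.08 and 7.72 in the controls, 8.15, 7.07 and 8.80 under LPS, and 9.01, 7.90 and 8.67 under LPS+MIC-1, so LPS+MIC-1 lay above control without passing (0.35, adjusted p = 0.129), and with FPKM sums set equal the sign turned (-0.26). Rc3h1 had 0.868, 1.34 and 1.09, then 1.76, 1.33 and 2.02, then 1.62, 1.55 and 1.55, levels that rest on few reads. The LPS+MIC-1 values of Rc3h1 were above all controls (0.38, adjusted p = 0.206, or -0.095 with sums set equal). Khsrp ranged from 6.66 to 13.3 over the 9 libraries, and its LPS+MIC-1 libraries (7.36 to 9.76) lay within the range of the controls (7.42 to 13.3) apart from the lowest. Hnrnpd was at 8.14, 6.70 and 6.09 in the controls, 8.80, 5.30 and 8.07 under LPS, and 5.65, 5.98 and 5.57 under LPS+MIC-1, all 3 of the last below the controls (-0.25, adjusted p = 0.366). With sums set equal, Khsrp (-0.77, adjusted p = 0.0431) and Hnrnpd (-0.86, adjusted p = 0.0148) passed for LPS+MIC-1 against control.

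With LPS+MIC-1 against control in liver 2 of the 8 genes passed, Zfp36l1 lower and Elavl1 higher, where 36.4% of all genes did. Between LPS+MIC-1 and LPS limma called 0 of the 8, with 1 at an unadjusted p under 0.05 (Zc3h12a), and 0% and 3.59% of all genes by the same rules. Groups did not overlap in 3, 2 and 6 of the 8 genes for LPS against control, LPS+MIC-1 against LPS and LPS+MIC-1 against control, where 45%, 9.75% and 54.6% of all genes did not. Relative to Elavl1 in the same library, Zfp36l1 was 14.5 to 24.0 times as high in the controls, 4.71 to 6.83 under LPS and 4.72 to 5.63 under LPS+MIC-1, so the treated ranges were apart from the controls and overlapped each other.

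Of the target list 15 mRNAs were tested in liver, and for LPS against control 8 rose and 1 fell (median log2 fold change 1.26, against 0.15 over all genes). That was 60% of the targets, where 34.7% of all genes passed. Il1b had an FPKM of 1.17, 0.587 and 1.72 in the controls, 7.21, 9.88 and 9.03 under LPS, and 4.25, 8.10 and 4.54 under LPS+MIC-1 (LPS against control 2.52, SE 0.32, adjusted p = 0.00193). Nfkbiz had 3.53, 5.24 and 6.20, then 13.9, 9.87 and 13.7, then 6.12, 11.6 and 5.74 (1.26, SE 0.31, adjusted p = 0.0167), and LPS+MIC-1 2 lay nearer to the LPS libraries than to the other LPS+MIC-1 libraries. Cxcl1, a neutrophil chemokine, rose by 4.04 (adjusted p = 0.000204), whereas Vegfa, an angiogenic factor, was the 1 target that fell (-1.64, adjusted p = 0.000996). Tnf was listed at 0 in all controls, at 1.36, 2.14 and 1.32 with LPS and at 1.02, 1.10 and 0 with LPS+MIC-1. The target Ier3, an immediate early gene, rose by 3.39 (adjusted p = 0.0252), and Tnfrsf4, a co-stimulatory receptor targeted by Regnase-1 and Roquin-1, was at -1.15 (adjusted p = 0.0911). Against control, with LPS+MIC-1, 5 targets rose and 1 fell (3 and 3 with FPKM sums set equal), which was 40% of them, near the 36.4% of all genes. For LPS+MIC-1 against LPS none of the 15 passed, where 0% of all genes did.

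The decay machinery in liver moved both ways with LPS. The counts of higher and lower genes against control were 3 and 2 of 14 for deadenylation, 3 and 1 of 16 for decapping and 5′ decay, 2 and 2 of 14 for the exosome, 5 and 2 of 19 for the other binding proteins, and 3 and 0 of 8 for the p38 and MK2 axis, where 34.7% of all genes passed. Btg2, an activator of deadenylation, rose by 2.93 (adjusted p = 0.0144), while Pan3, a subunit of a poly(A) nuclease (-1.31, adjusted p = 0.0209), and the deadenylase subunit Cnot3 (-0.84, adjusted p = 0.00688) fell and Cnot2 did not pass (1.53, adjusted p = 0.101). Xrn1, the 5′ to 3′ exonuclease and the 1 decapping and 5′ decay gene counted as lower, was at -2.18 (adjusted p = 0.0338). Its mean FPKM was 2.29 in the controls, 0.0918 with LPS and 0.664 with LPS+MIC-1. It met the condition for testing only through the controls, so its fall is a description only, and its low values rest on few reads. Lsm14a, a P-body protein, rose by 2.18 (adjusted p = 0.0475) from a mean of 0.335 in the controls. Lsm4 (1.71, adjusted p = 0.138) and Eif4enif1 (-0.33, adjusted p = 0.431) did not pass. Of the exosome list Wdr61 rose (1.05, adjusted p = 0.0176), Dis3l fell (-0.63, adjusted p = 0.0303), and Exosc3 (1.14, adjusted p = 0.27) and Skiv2l (-0.58, adjusted p = 0.09) did not pass. Of the binding proteins Celf1 rose (2.77, adjusted p = 0.0208), Tial1 fell (-1.41, adjusted p = 0.0445), and Ptbp1 was at 2.47 (adjusted p = 0.099). Mapk14, which encodes p38α, rose by 1.13 (adjusted p = 0.00739) and Mapkapk2, which encodes MK2, by 0.93 (adjusted p = 0.0287), while the kinase Map2k3 (-0.61, adjusted p = 0.0837) and Ywhab (-0.12, adjusted p = 0.729) did not pass. With FPKM sums set equal the p38 axis counts were 1 and 1, and the exosome counts 1 and 4. With LPS+MIC-1 against control the counts were 3 and 3 for deadenylation, 2 and 0 for decapping, 2 and 2 for the exosome, 4 and 1 for the other binding proteins and 3 and 0 for the p38 axis, where 36.4% of all genes passed. Between LPS+MIC-1 and LPS none passed in any of these lists, where 0% of all genes did.

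The genes lie on 7 chromosomes (NCBIM37, mm9). Zfp36 is at chr7:29161803-29164274 and Khsrp at chr17:57160481-57170930, both on the minus strand. Zfp36l2 is at chr17:84583271-84587287, Zc3h12a at chr4:124795667-124805084 and Elavl1 at chr8:4284782-4325100, all on the minus strand, and Rc3h1 is at chr1:162836549-162905109 on the plus strand. Zfp36l1, at chr12:81208747-81214000 on the minus strand, overlaps the noncoding gene Gm17591 on the plus strand, and Hnrnpd, at chr5:100387445-100407957 on the minus strand, overlaps Gm17092 on the plus strand. Whether the libraries kept strand is not given in the sources used here, so reads of these 2 genes and of their antisense partners cannot be told apart.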

How the data were processed

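Total RNA from RAW264.7 cells and mouse liver was sequenced. The authors estimated transcript abundance with Kallisto 0.45.0 on the mm9 build, summed it to genes with tximport, and deposited FPKM values scaled with DESeq2 1.20.0 for 9 libraries per tissue. Their comparison tables (log2 fold changes, p-values) were not used. Here log2(FPKM + 0.5) of genes with a mean FPKM above 1 was tested with limma 3.58.1 (R 4.3.3), 1 fit of all 9 libraries per tissue without covariates, with Benjamini-Hochberg adjustment over all genes and a threshold of 0.05. Groups follow the column names, which carry no replicate number, so libraries were numbered in column order. Depth was estimated from the steps of low FPKM values. The scripts were tested on simulated data. Alternatives were another scaling, pseudocount, filter or fit, and leaving out libraries. The 8 members were named in full. Of each other list, the genes named are those with the 2 largest and 2 smallest log2 fold changes of LPS against control per tissue, plus 8 target mRNAs. Cd14, Clec4f, Csf1r, Emr1, Lyz2, Marco and S100a8 were singled out after their values were seen. The members, lists and tests were chosen with earlier results of these data known. Il12b was not analysed here, and 1 gene that the naming rule gives among the other binding proteins is not reported here.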

Additional observations from a re-analysis of the deposited data

Results flagged for a closer look

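In 3 of the 8 genes, each in 1 comparison with control, the treated libraries did not overlap the controls in either tissue and lay on opposite sides of them. The share of all genes with such a pattern was not counted, so this is a description only. The differences between the tissues were not tested, because the tables were normalized separately. Zfp36l1 was above control with LPS in macrophages (log2 fold change 0.53) and below it in liver (-1.21). Zfp36l2 was below control with LPS+MIC-1 in macrophages (-1.26) and above it in liver (0.35). Elavl1 was below control with LPS+MIC-1 in macrophages (-0.36) and above it in liver (0.80). Of these 6 values, the Zfp36l1 and Elavl1 values in liver and the Zfp36l2 value in macrophages passed an adjusted p of 0.05 by limma with all 9 libraries. With FPKM sums set equal, the Zfp36l1 value in macrophages turned to -0.13 and the Zfp36l2 value in liver to -0.26, so that neither pair then differed in sign.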

How the results depend on the processing

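The counts of the 8 genes called were compared with those under other settings, of which the settings that combine LPS 2 left out with another choice, the averaging in liver and the leaving out of both liver libraries 2 were chosen after seeing the data. In macrophages the count for LPS against control was 0, and it was 3 at an unadjusted p under 0.05 with an absolute log2 fold change above 1, 0 to 6 on leaving out 1 library (6 without LPS 2), and without LPS 2 also 7 with FPKM sums set equal, 6 with median-of-ratios scaling and 3 at an adjusted p below 0.01 with an absolute log2 fold change above 1. The count for LPS+MIC-1 against LPS was 3, and 1 with only the 2 groups in the fit, 1 at the stricter threshold, 1 to 5 on leaving out 1 library (5 without LPS 2, and 1 without control 1, control 3, LPS 3 or any LPS+MIC-1 library), 0 with libraries 1 and 3 averaged, and without LPS 2 also 6 with sums equal and 5 with median-of-ratios scaling. The count for LPS+MIC-1 against control was 2, and 6 with only the 2 groups in the fit, 2 to 7 on leaving out 1 library, 0 with averaging, and without LPS 2 also 7 with sums equal and 6 with median-of-ratios scaling. In liver the count for LPS against control was 2, and 1 at the stricter threshold, 1 to 3 on leaving out 1 library (3 without LPS 2) and 0 with averaging. Between LPS+MIC-1 and LPS it was 0, and 1 with both libraries 2 left out. The liver count for LPS+MIC-1 against control was 2, and 0 at the stricter threshold, 0 at an unadjusted p with the fold limit and 0 with averaging. The number of all genes called moved with the settings too. In macrophages 0%, 21.6% and 24.8% of all genes passed with all libraries, for the comparisons in the order above. Without LPS 2 the shares were 75.2%, 68% and 60.3%. With only the 2 groups in the fit, more genes passed for LPS+MIC-1 against control and fewer for LPS+MIC-1 against LPS. Without LPS 2, setting sums equal gave more of all genes in each comparison, and the stricter threshold gave fewer. In each macrophage setting that left 1 of the 8 for LPS+MIC-1 against LPS, fewer of all genes passed. In liver, fewer of all genes passed for LPS against control in each setting with a count of 1 or 0, and more without LPS 2. Both fold limits gave fewer for LPS+MIC-1 against control in liver. The counts of the 8 genes were not tested against those of all genes.

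Signs turned mostly where changes were small or sums were set equal. With sums equal in macrophages, LPS against control was -0.45 for Zfp36, -0.13 for Zfp36l1 and -0.56 for Zfp36l2 (-0.86, -0.27 and -0.76 without LPS 2), and LPS+MIC-1 against LPS was 0.14 for Zfp36l1, 0.38 for Elavl1 and 0.32 for Khsrp (0.28, 0.78 and 0.77 without LPS 2, and 0.11 for Zfp36). Elavl1 in that comparison was 0.0059 with median-of-ratios scaling without LPS 2 and -0.18 to 0.0015 on leaving out 1 library (0.0015 without LPS 2), and Zfp36l1 was -0.53 to 0.053 (0.053 without LPS+MIC-1 2). Zfp36l1 for LPS+MIC-1 against control was -0.015 with averaging and -0.0029 to 0.58 on leaving out 1 library (below 0 without LPS+MIC-1 1 or 3). In liver, Hnrnpd for LPS against control was -0.029 with median-of-ratios scaling, -0.29 with sums equal, -0.036 with averaging and -0.077 to 0.26 on leaving out 1 library (below 0 without control 3, LPS 1 or LPS 3). In that comparison Zfp36l2 was -0.080 with sums equal, and Khsrp was -0.25 to 0.19 on leaving out 1 library (above 0 without control 1 or LPS 2) and 0.15 with both libraries 2 left out. With sums equal in liver, LPS+MIC-1 against LPS was -0.029 for Zfp36l1, -0.18 for Zfp36l2 and -0.0056 for Elavl1, and LPS+MIC-1 against control was -0.26 for Zfp36l2 and -0.095 for Rc3h1. Over the fits that left out 1 liver library, Zfp36 was -0.29 to 0.48 for LPS+MIC-1 against LPS (above 0 without LPS 1, LPS 3 or LPS+MIC-1 2) and -0.57 to 0.20 against control (above 0 without LPS+MIC-1 2), and with both libraries 2 left out it was 0.35 and 0.20. In the same fits Khsrp was -0.30 to 0.097 against LPS (above 0 without LPS 1) and -0.31 to 0.097 against control (above 0 without control 1), and Rc3h1 was -0.20 to 0.027 against LPS (above 0 without LPS 3). The cause of these turns was not tested.

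Of 888 values of single genes under these settings 766 kept direction and side of the threshold. The macrophage calls of Zfp36l2 held under 18 of 19 settings for both comparisons with LPS+MIC-1, and that of Zc3h12a under 18 against control and 11 against LPS. The Zfp36 call against LPS held under 6. In liver the 2 calls of Zfp36l1 held under 17 of 18 settings, that of Elavl1 under 16 and that of Zc3h12a under 13. No paired analysis was possible because the table columns carry no replicate numbers. The low values of Rc3h1 in liver rest on few reads.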

Other observations

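The genes whose log2 values were most alike over the 9 libraries of a table are given as a description, since libraries share groups and depth. In macrophages, Zfp36 was most like Fos (Pearson r = 0.980), Ctnnbip1 (0.955) and Cdkn2d (0.954), and Fos is itself an immediate early gene with an AU-rich 3′ UTR. Zc3h12a was most like Ehd1 (0.997), Gadd45a (0.997) and Ccl7 (0.996). Zfp36l2 was most like Fam195a (0.997), Ndufs7 (0.996) and Fkbp3 (0.995), and Elavl1 was most like Mrps6 (0.988), Eef1e1 (0.986) and Ppp2r4 (0.985). In liver, Zfp36 was most like Srsf5 (0.970), Lman1 (0.970) and Ahcyl2 (0.965), and Zc3h12a was most like Arrdc4 (0.989), Alas1 (0.984) and Slc25a47 (0.975). Zfp36l2 was most like Fam168b (0.957), D15Ertd621e (0.957) and Mageh1 (0.948), and Elavl1 was most like Arfgef1 (0.985), Il17ra (0.978) and Zswim1 (0.976). None of these genes was among the 3 most alike of the same gene in both tissues.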
